A study of Mus musculus with 12 samples.

Results

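Hemidesmosomes and the integrin contacts around them fasten the basal cells of the epidermis to the basement membrane, and 9 of their genes are described here. They were taken by symbol as Itga6, Itgb4, Itga3, Itgb1, Itga5, Lama3, Lamb3, Cd44 and Dst. The 9 are of 23235 gene symbols listed for each library, and the symbols were picked by name and not by a threshold on values. Earlier results of these data were known when they were chosen. Each of the 9 had 1 row per library, and all 108 values carried a status of OK.

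PolyA RNA of FVB/NJ mice was sequenced as 12 libraries, which fall into 4 groups of 3. Camphor white oil (CWO) is a distilled essential oil of the camphor tree, and the study compared it with acetone, its vehicle, in normal epidermis and in skin tumours. In the epidermis groups, shaved mice received 400 µL of vehicle or of 20% CWO on the skin, and epidermis was taken 24 h later and freed from the dermis by 40 min in 3.8% ammonium thiocyanate. In the papilloma groups, mice shaved at 6 to 7 weeks of age received 400 nmol of the carcinogen DMBA and then twice-weekly 10 nmol TPA, a tumour promoter, after which vehicle or 20% CWO was given for 6 weeks. Both papilloma groups thus carry DMBA and TPA, and neither epidermis group does. Each papilloma library pooled 4 pre-malignant tumours of 1 mouse, with 3 mice per treatment, and the tumours were homogenized whole. The age of the epidermis mice is not given in the labels, and the sequenced epidermis samples were the 3 of each treatment with the best RNA integrity. Tissue therefore cannot be told apart from carcinogen and promoter, duration of treatment or the separation of the dermis.

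A hemidesmosome is built on the integrin α6β4, whose α chain is encoded by Itga6 and whose β chain, with its long cytoplasmic tail, by Itgb4. Inside the cell the plakins BPAG1, a product of Dst, and plectin tie the β4 tail to the keratin filaments of Krt5 and Krt14, and outside the cell α6β4 binds laminin-332, which holds the Lama3 and Lamb3 chains. Integrins with the β1 chain of Itgb1 link the same cells to the matrix through actin-bound contacts: α3β1 (Itga3) binds laminin-332, and α5β1 (Itga5) binds fibronectin. Cd44 is the main cell-surface receptor for hyaluronan. In skin several of these genes are known for blistering diseases when they are lost, or for marking the basal, proliferative layer and its tumours.

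The libraries held 11.1 to 24.6 M (mega) fragments, as recovered from the deposited values, and the basal keratins and Trp63 were present in all 12. Markers of other tissue differed between the groups. Summed FPKM of 12 skeletal muscle genes was 12107, 19137 and 3893 in the vehicle epidermis libraries, 3244 to 4178 in epidermis given CWO and 9.43 to 414 in papillomas. Vehicle epidermis replicates 1 and 2 thus stood apart by their muscle RNA. Summed FPKM of 11 fibroblast and dermal matrix genes was 35.9 to 80.5 in vehicle epidermis, 18.3 to 30.7 in CWO epidermis, 413 to 593 in vehicle papilloma and 443 to 674 in CWO papilloma. Endothelial markers (6 genes) summed to 3.50 to 14.0 FPKM in epidermis and 25.2 to 35.6 in papilloma, and none of the genes of either list was at 0 in every library of any group. Sebaceous gland markers (8 genes) summed to 2141 to 2495 FPKM in vehicle epidermis and 165 to 413 in vehicle papilloma. All 8 were called lower in vehicle papilloma. Hair follicle markers (8 genes) varied within groups, from 5.23 to 162 FPKM in vehicle epidermis and from 91.5 to 571 in vehicle papilloma. Leukocyte markers (7 genes) summed to 181 to 244 FPKM in epidermis and 80.1 to 123 in papilloma. Under vehicle 5 of the 7 were lower in papilloma, among them Csf1r (26.3 and 10.1 FPKM in epidermis and papilloma). Cd68 (8.70 and 23.4 FPKM) and Lyz2 (20.2 and 41.9 FPKM) were higher, so genes known from macrophages went both ways.

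**Figure D1:**
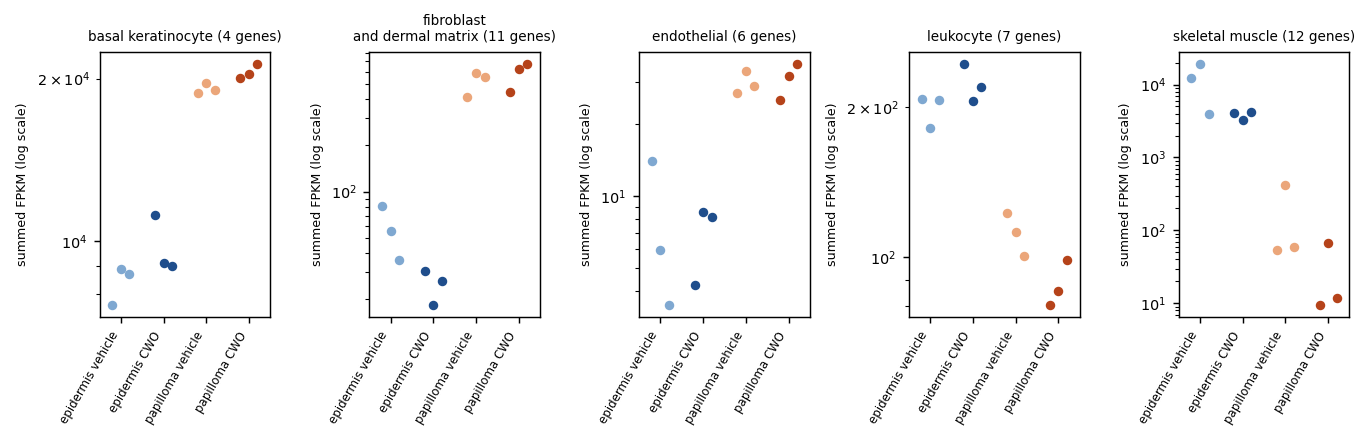
Summed FPKM of 5 marker lists (log scale) in each of the 12 libraries, by group; points are libraries. Fibroblast and endothelial sums are higher in all 6 papilloma libraries than in all 6 epidermis libraries, leukocyte and muscle sums are lower, and 2 of the 3 vehicle epidermis libraries have the highest muscle sums.

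In vehicle epidermis the 9 genes spanned a wide range of levels. FPKM is per length, so an order between genes also depends on the transcript lengths taken, and gene-level values do not separate isoforms. By FPKM, Lamb3 was the highest at 49.0 ± 4.78 (SD, n = 3), followed by Itgb4, Cd44, Itgb1, Itga6 and Itga3 at 35.7 to 21.9 FPKM. From Itgb4 to Itga3 each gene's range over the libraries overlapped that of the next, while Lamb3 lay above Itgb4 in every library. Dst (8.20 ± 1.70), Lama3 (5.11 ± 1.07) and Itga5 (0.885 ± 0.0846) followed in that order with no overlap between neighbours. In vehicle papilloma the order was another. Cd44 came first at 135 ± 4.01 FPKM, then Itgb1 at 111 ± 14.9 and Itga6 at 86.6 ± 4.27, with no overlap between these neighbours. Itga6, Itgb4, Lamb3 and Itga3 each overlapped the next, and Lama3, Itga5 and Dst stood below them without overlap, so that Dst was the lowest of the 9 at 6.09 ± 0.417 FPKM.

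**Figure D2:**
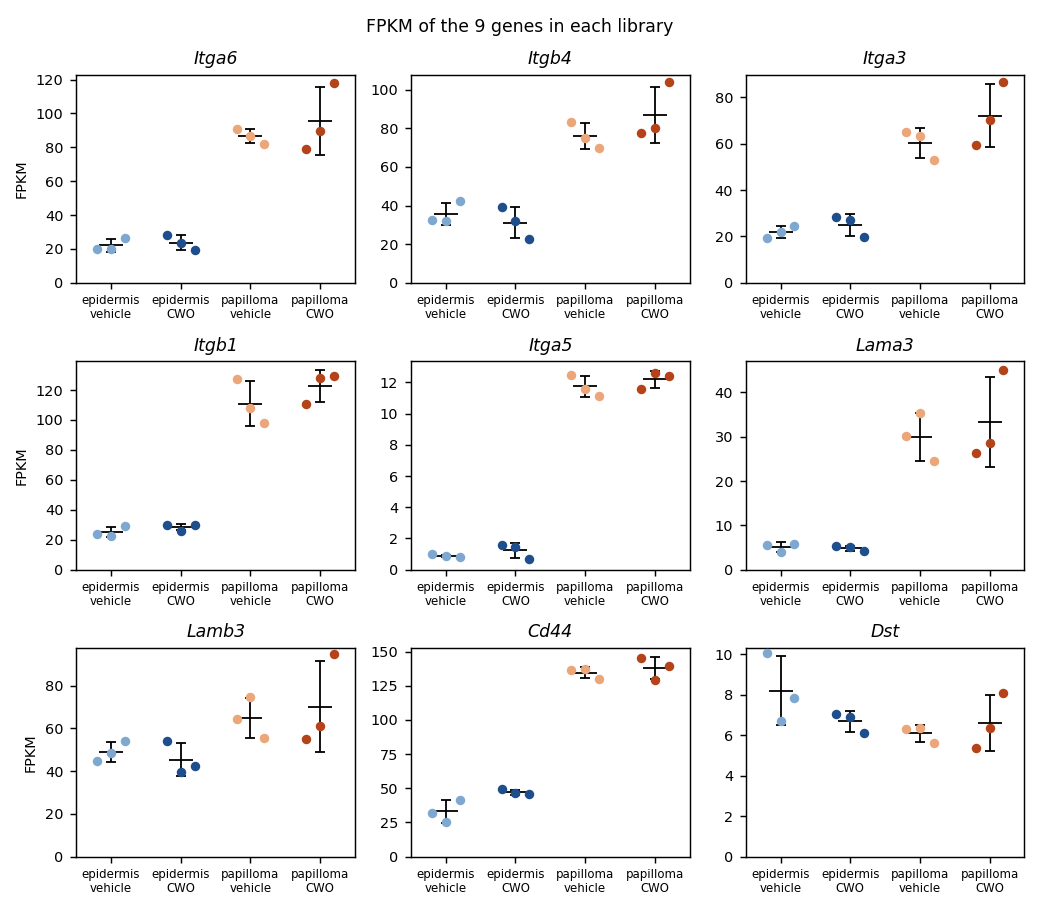
FPKM of the 9 genes in each of the 12 libraries; coloured points are libraries, the horizontal dash and bars are the mean ± SD of 3 libraries, and each panel has its own axis from 0. The papilloma libraries lie above all epidermis libraries for 8 genes, and Dst stays between 5.34 and 10.0 FPKM throughout.

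The first comparison was of papilloma with epidermis, both under vehicle. Of the 9 genes, 8 were higher in papilloma, none was lower and Dst did not pass (limma on log2(FPKM + 1), Benjamini-Hochberg adjusted p under 0.05 over 12824 genes tested). Of all genes tested, 69.9% passed in either direction, 31.7% as higher and 38.2% as lower, so that most genes differed between these tissues. The groups did not overlap for any of the 9, Dst included, nor for 74.4% of all genes. The median log2 fold change of the 9 was 1.94, and that of all genes tested was -0.07. All fold changes are differences of log2(FPKM + 1), and this scale understates the change of a low gene such as Itga5. In bulk tissue, a difference in the share of cells that express a gene and a difference in RNA per cell cannot be told apart.

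Among the hemidesmosome integrin chains, Itga6 (listed on mm9 chromosome 2, 71625139 to 71694815) had 19.8, 19.9 and 26.4 FPKM in vehicle epidermis and 90.7, 87.0 and 82.2 FPKM in vehicle papilloma. Every papilloma library lay well above every epidermis library. The log2 fold change was 1.94 (SE 0.124, limma adjusted p = 5.82e-06), higher than 95.3% of genes tested. Itgb4 (chromosome 11, 115836038 to 115869725) had 32.8, 32.0 and 42.3 FPKM in the epidermis libraries and 83.5, 74.7 and 70.0 FPKM in the papillomas. Its groups did not overlap either, and the log2 fold change was smaller at 1.08 (SE 0.128, limma adjusted p = 0.000142). The partner chains of one receptor thus differed in size of change, which is taken up with the ratios.

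Dst (chromosome 1, 34068669 to 34365497) encodes BPAG1 of the hemidesmosome and also large isoforms of nerve and muscle, and the gene-level values do not separate them. It had 10.0, 6.70 and 7.85 FPKM in vehicle epidermis and 6.32, 6.34 and 5.60 FPKM in vehicle papilloma. All papilloma values lay below all epidermis values, and the log2 fold change of -0.36 (SE 0.150) did not pass (limma adjusted p = 0.0607). It passed when vehicle epidermis replicate 2 was left out (-0.48, limma adjusted p = 0.0168) and with limma-voom on recovered fragments (-0.42, adjusted p = 0.0430). Without both muscle-rich epidermis libraries the log2 fold change was -0.32, with 1 vehicle epidermis library left. The muscle sums of the same epidermis libraries were 12107, 19137 and 3893 FPKM, and the part of muscle RNA in Dst was not tested.

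The laminin-332 chains moved unequally. Lama3, the α chain that carries the integrin-binding end, had 5.63, 3.88 and 5.82 FPKM in vehicle epidermis and 30.2, 35.2 and 24.5 FPKM in vehicle papilloma. The groups were far apart, with a log2 fold change of 2.34 (SE 0.177, limma adjusted p = 1.32e-05). Lamb3, the β chain (chromosome 1, 195128187 to 195170072), had 44.6, 48.4 and 54.1 FPKM in the epidermis libraries and 64.2, 74.5 and 55.7 FPKM in the papillomas. The nearest libraries of its groups differed little, and the log2 fold change of 0.39 (SE 0.127) passed with a limma adjusted p of 0.0242. This call was lost in 6 of the alternatives tried. It was lost without vehicle epidermis replicate 1 (0.33, adjusted p = 0.0780), without replicate 2 (0.38, adjusted p = 0.0597) and without both (0.25, adjusted p = 0.261). It was also lost without vehicle papilloma replicate 1 (0.39, limma adjusted p = 0.0607), without replicate 2 (0.29, adjusted p = 0.0886) and in one fit of all 12 libraries (adjusted p = 0.0855).

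For the β1 integrins, Itgb1 (chromosome 8, 131209553 to 131257479), the chain shared by α3β1 and α5β1, had 23.8, 22.8 and 29.1 FPKM in vehicle epidermis and 127, 108 and 97.7 FPKM in vehicle papilloma. Even the lowest papilloma library was over 3 times the highest epidermis library, and the log2 fold change was 2.09 (SE 0.131, limma adjusted p = 5.28e-06). Itga3 (chromosome 11, 94905795 to 94938028) had 19.2, 22.0 and 24.6 FPKM in the epidermis libraries and 65.1, 63.2 and 53.0 FPKM in the papillomas. Its log2 fold change was 1.42 (SE 0.123, limma adjusted p = 2.58e-05), again with no overlap.

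Itga5 (chromosome 15, 103174717 to 103197179), the fibronectin receptor chain, had the largest change of the 9. Its FPKM was 0.975, 0.873 and 0.807 in vehicle epidermis and 12.5, 11.6 and 11.1 in vehicle papilloma. The epidermis values rest on 40 to 82 recovered fragments per library and the papilloma values on 799 to 961. The log2 fold change was 2.76 (SE 0.112, limma adjusted p = 7.85e-07), higher than 97.8% of genes tested. Itga5 entered the test through its papilloma values alone, since all its vehicle epidermis values were under the minimum of 1 FPKM.

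Cd44 (chromosome 2, 102651299 to 102741822) had 31.8, 25.5 and 41.7 FPKM in vehicle epidermis and 136, 137 and 130 FPKM in vehicle papilloma. The papilloma libraries were close to one another and all above epidermis, and the log2 fold change was 2.02 (SE 0.162, limma adjusted p = 1.77e-05). The rise of 7 of the 9 genes passed also without both muscle-rich epidermis libraries, where their log2 fold changes were 0.83 to 2.82 and the lone vehicle epidermis library was assumed to vary like the other group. The part of fibroblast and endothelial RNA in the papilloma values of Itgb1, Itga5 and Cd44, genes that those cells also express, was not tested.

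Under CWO the same tissue contrast used the other 6 libraries. Again 8 of the 9 genes were higher in papilloma and Dst did not pass, where 68.7% of 12724 genes tested passed in either direction, 29.1% as higher and 39.6% as lower. The groups did not overlap for 8 of the 9 and for 74% of all genes. The median of the 9 was 1.53 and that of all genes -0.11, and median-ratio scaling moved the latter from -0.11 to -0.01 without changing the count of 8. The log2 fold changes were 1.96 for Itga6, 1.47 for Itgb4, 1.49 for Itga3, 2.06 for Itgb1, 2.59 for Itga5, 2.52 for Lama3 and 1.53 for Cd44, with limma adjusted p from 1.46e-06 to 0.000251. Lamb3 had 0.59 (SE 0.209, limma adjusted p = 0.0337), and its call was lost without CWO papilloma replicate 3 (0.36, adjusted p = 0.0833), without CWO epidermis replicate 2 (0.50, adjusted p = 0.0920), without CWO epidermis replicate 3 (0.55, adjusted p = 0.0913) and with no filter on low values (adjusted p = 0.0663). Dst, at 7.06, 6.88 and 6.09 FPKM in the epidermis libraries and 5.34, 6.33 and 8.08 FPKM in the papillomas, overlapped between the tissues (log2 fold change -0.03, limma adjusted p = 0.864). Whether the tissue contrasts differ with treatment is the same question as whether the CWO effects differ between tissues, and that test is given further on.

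**Figure D3:**
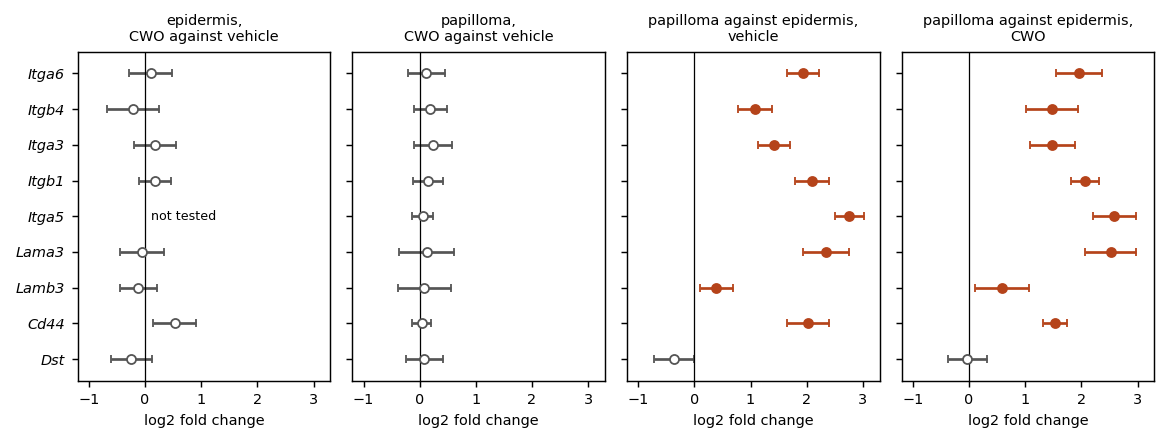
Log2 fold change (on log2(FPKM + 1)) of the 9 genes in 4 comparisons; points are limma estimates from 3 against 3 libraries, bars are 95% intervals, and filled red points passed an adjusted p of 0.05. No gene passed for CWO against vehicle in either tissue, and 8 passed as higher in papilloma under each treatment.

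The change of subunit proportions was described from ratios of FPKM within each library, which scaling between libraries does not touch. The ratio of Itga6 to Itgb4 was 0.617 ± 0.00999 in vehicle epidermis (n = 3) and 1.14 ± 0.0478 in vehicle papilloma. The lowest papilloma ratio, 1.09, lay above the highest epidermis ratio, 0.624. The ratio of Lama3 to Lamb3 was 0.105 ± 0.0233 in vehicle epidermis and 0.461 ± 0.0184 in vehicle papilloma, with ranges of 0.0801 to 0.126 and 0.440 to 0.473. In both pairs the chain that was lower per length in epidermis gained on its partner.

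Between the β chains, Itgb4 made up 58.5% ± 0.688 of Itgb4 plus Itgb1 in vehicle epidermis and 40.7% ± 1.06 in vehicle papilloma. Itgb4 thus exceeded Itgb1 in every vehicle epidermis library and was below it in every papilloma library. Among the 3 α chains, Itga5 went from 2.01% ± 0.442 to 7.40% ± 0.221 of their summed FPKM, Itga6 from 49.0% ± 2.29 to 54.6% ± 1.36, and Itga3 from 49.0% ± 2.17 to 38.0% ± 1.55. The summed FPKM of the 3 α chains rose from 44.8 ± 6.22 to 159 ± 11.3. None of these 7 quantities overlapped between the vehicle tissues. The exact permutation test gave p = 0.1 for each, two-sided, the smallest that 3 against 3 libraries allow (adjusted p = 0.175 over the 28 tests of 7 quantities in 4 comparisons).

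Under CWO the ratio of Itga6 to Itgb4 was 0.774 ± 0.0757 in epidermis, above all vehicle epidermis libraries, and 1.09 ± 0.0624 in papilloma, where treated and vehicle ranges overlapped. The share of Itgb4 in Itgb4 plus Itgb1 was 51.6% ± 7.28 in CWO epidermis, with single values from 43.2% to 56.6%, all below vehicle epidermis. Both epidermis differences had an exact permutation p of 0.1 (adjusted p = 0.175), so the design cannot place them past the threshold. In CWO papilloma the Itgb4 share was 41.4% ± 3.01, and its range of 38.4% to 44.5% overlapped that of CWO epidermis. The ratio of Lama3 to Lamb3 was 0.108 ± 0.0170 in CWO epidermis and 0.475 ± 0.00563 in CWO papilloma and overlapped with vehicle in both tissues.

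**Figure D4:**
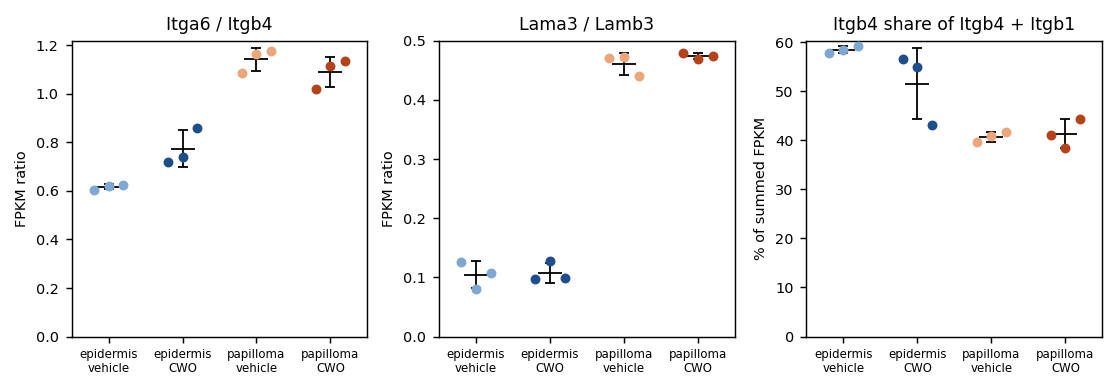
FPKM ratio of Itga6 to Itgb4, FPKM ratio of Lama3 to Lamb3, and Itgb4 as percent of summed Itgb4 and Itgb1 FPKM in each library; points are libraries, dashes and bars are mean ± SD of 3, and axes start at 0. Both ratios are higher in all papilloma libraries than in all epidermis libraries, and the Itgb4 share in vehicle papilloma, 40.7%, is below the 58.5% of vehicle epidermis. Under CWO the Itgb4 share overlaps between the tissues.

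Relative to genes of the basal layer itself, the picture depended on the gene taken, a comparison with single genes added after the values were seen. Krt14, the type I keratin of basal cells, went from 2882 ± 279 to 15781 ± 392 FPKM between the vehicle tissues (log2 fold change 2.46, limma adjusted p = 1.28e-05). Krt5, its type II partner, had 2990 ± 355 and 3213 ± 124 FPKM (0.11, limma adjusted p = 0.557). Trp63, the transcription factor p63 of basal keratinocytes, had 104 ± 16.1 and 92.4 ± 6.45 FPKM, and Krt15, a keratin of resting basal cells and the hair follicle bulge, had 2437 ± 82.4 and 51.1 ± 19.5 FPKM.

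Taken relative to Krt5, 8 of the 9 genes were higher in every vehicle papilloma library than in every vehicle epidermis library, by 0.28 (Lamb3) to 2.65 (Itga5) on the log2 scale, and Dst was lower by 0.47 (log2 difference -0.47). Relative to Trp63 the same 8 were higher, by 0.55 to 2.91. Relative to Krt14, 1 gene, Itga5, was higher in all papilloma libraries (0.30), and 5 genes were lower in all of them: Itga6 (-0.52), Itga3 (-1.03), Itgb4 (-1.38), Lamb3 (-2.07) and Dst (-2.82). Itgb1 (-0.36), Cd44 (-0.43) and Lama3 (-0.11) overlapped relative to Krt14. Relative to the mean of the 4 basal genes, all 9 differences were positive, from 0.44 (Dst, exact permutation p = 0.3) to 3.56 (Itga5, exact permutation p = 0.1), and that mean is pulled down in papilloma by Krt15. The exact permutation test cannot go below 0.1 here for any gene. Unscaled, 74.4% of all genes did not overlap between the vehicle tissues. Their share relative to these basal genes was not computed, so the counts above show nothing particular to the 9.

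The fixed list of hemidesmosome companions, all 7 of which were tested, held genes of both directions between the vehicle tissues. Of the 7, 2 were higher in papilloma, among them Krt14, and 3 were lower: Plec, the gene of plectin, from 58.4 ± 0.216 to 29.4 ± 0.373 FPKM (log2 fold change -0.97, limma adjusted p = 1.6e-05), Col17a1, the gene of the hemidesmosomal transmembrane collagen BP180, from 263 ± 35.8 to 178 ± 9.95 FPKM (-0.55, adjusted p = 0.00316), and Cd151, a tetraspanin partner of α3β1 and α6β4, from 80.1 ± 7.76 to 58.3 ± 6.09 FPKM (-0.45, adjusted p = 0.00721). Krt5 and Erbb2ip (0.31, limma adjusted p = 0.127), which encodes the β4-binding protein Erbin, did not pass. The list's median was 0.11 beside -0.07 for all genes. These counts, 2 higher and 3 lower of 7, lie near the background of 31.7% higher and 38.2% lower over all genes. Under CWO the same counts held, with 2 higher and 3 lower of 7 and a median of 0.03.

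Of 17 tested basement membrane genes, 11 were higher in vehicle papilloma, 5 were lower and 1 did not pass, with a median log2 fold change of 1.01. Those with the smallest p were the collagen IV chain genes Col4a2 (2.49) and Col4a6 (-2.17), Tinagl1, a matrix glycoprotein gene (3.35), and the nidogen gene Nid2 (2.06), with limma adjusted p of 1.32e-05 or lower. Collagen IV chains thus moved in opposite directions. Nid2 was under 1 FPKM in every vehicle epidermis library and entered the test through papilloma alone. Col4a5, Col4a6, Lama1 and Frem2, all called lower, were under 1 FPKM in every vehicle papilloma library and entered through epidermis alone. Of 16 other integrin subunits, 11 were higher and 4 were lower, with a median of 0.77. Among those called higher, Itga1, Itga2b, Itga11, Itgb3 and Itgb8 were under 1 FPKM in every vehicle epidermis library. They entered the test through the papilloma values alone, so their part in this count and median was favoured by the filter. Itgae (-1.77) and Itgb7 (-1.67), the 2 chains of the αEβ7 integrin of intraepithelial lymphocytes, were lower, while Itgam (0.62, limma adjusted p = 0.00685, without vehicle epidermis replicate 2, whose value was not OK) and Itgax (0.58, adjusted p = 0.00372), integrin chains of myeloid cells, were higher. Itga2, the collagen receptor chain, and Itga7, a laminin receptor chain, were higher by log2 fold changes of 2.03 and 1.28.

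Of 21 genes of the integrin-linked adhesion plaque, the cytoplasmic side of actin-bound contacts, 10 were higher, 8 were lower and 3 did not pass, with a median of 0.24. Actn1 (α-actinin, 1.57), Parva (α-parvin, 1.96) and Vcl (vinculin, 1.08) were higher, and Tns1 (tensin, -1.55) was lower. Of 15 ligands of integrins and Cd44 with their partners, 10 were higher, 2 were lower and 3 did not pass, with a median of 1.62. Has2 and Vcan, under 1 FPKM in every vehicle epidermis library, entered the test through papilloma alone. Has3, a hyaluronan synthase that makes the Cd44 ligand, went from 1.28 ± 0.444 to 52.0 ± 6.31 FPKM (log2 fold change 4.55, limma adjusted p = 4.61e-07). Tnc, the matrix protein tenascin C, went from 1.06 ± 0.341 to 23.2 ± 3.75 FPKM (3.55), and Postn, periostin, from 19.5 ± 5.20 to 148 ± 25.4 FPKM (2.88). Msn, moesin, which ties Cd44 to actin, had 1.77. Many of these matrix genes are also made by fibroblasts, whose marker sums differ between the tissues as given above, and the part of those cells was not tested.

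In the contrast of the CWO libraries, 11 of 17 basement membrane genes were higher in papilloma and 5 lower (median 1.28), as under vehicle. Of 15 other integrin subunits 7 were higher and 5 lower (median 0.43), of 20 plaque genes 11 were higher and 4 lower (median 0.465), and of 15 ligands 10 were higher and 1 lower (median 1.42). The median of all genes in that contrast was -0.11. Among the leukocyte integrin chains, Itgam was higher there (0.43, limma adjusted p = 0.0112) and Itgax did not pass (-0.30, adjusted p = 0.140). Itgal (-0.91, limma adjusted p = 0.000252) and Itgb2 (-0.88, adjusted p = 0.00273) were lower. As under vehicle, some listed genes entered the test through papilloma alone, namely Itga2, Itga11, Itgb3, Itgb8, Nid2, Has2 and Vcan. Col4a5, Col4a6, Lama1 and Frem2, all called lower, entered through epidermis alone. The part of these genes in the counts and medians was thus favoured by the filter.

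**Figure D5:**
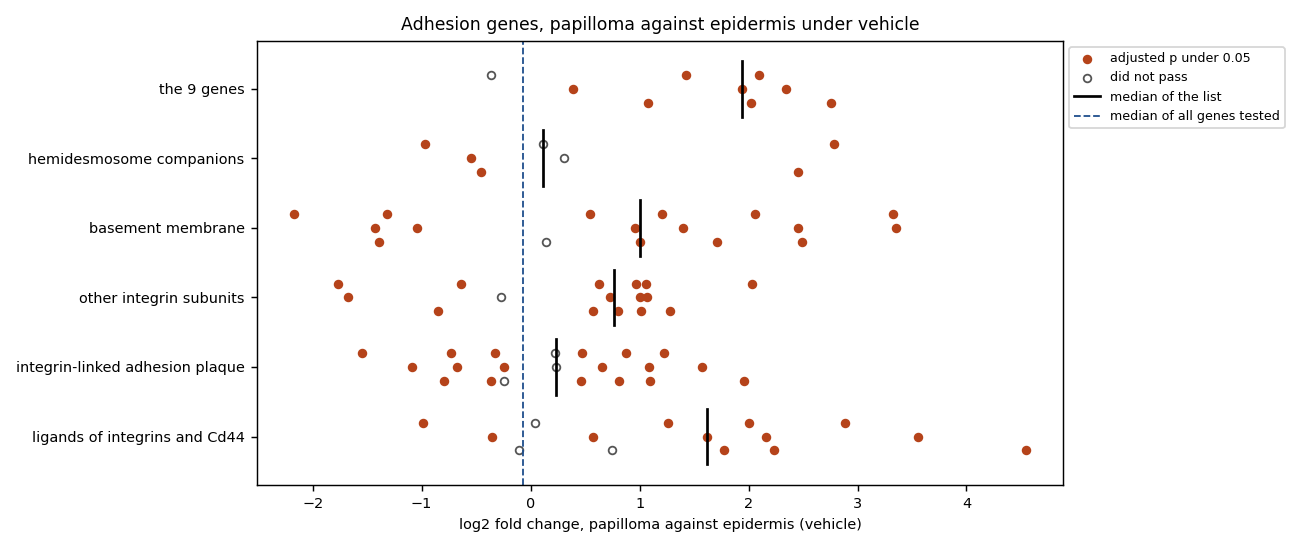
Log2 fold change of papilloma against epidermis under vehicle for the 9 genes and the tested genes of 5 adhesion lists; each point is a gene, red points passed a limma adjusted p of 0.05, black bars are list medians and the dashed line is the median of all 12824 genes tested. The median of the 9 genes is 1.94, that of the hemidesmosome companions 0.11 and that of all genes -0.07, and every list but the 9 genes holds called genes on both sides of 0.

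The next comparison was of CWO with vehicle in normal epidermis, 24 h after 1 application. None of the 8 members tested passed, where 1.92% of 12315 genes tested passed in either direction (1.75% as higher, 0.162% as lower), and 1 of the 8, Cd44, had an unadjusted p under 0.05, as had 14.6% of all genes tested. Itga5, at 1.56, 1.43 and 0.702 FPKM under CWO and 0.975, 0.873 and 0.807 under vehicle, was below the filter and overlapped between the groups; with no filter its log2 fold change was 0.22 (limma adjusted p = 0.674). The median log2 fold change of the 8 was 0.02, as was that of all genes tested (0.02). Of the 8, 4 were positive, beside 6772 of all 12315 genes tested.

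Cd44 had 31.8, 25.5 and 41.7 FPKM under vehicle and 49.1, 46.2 and 45.8 FPKM under CWO in epidermis. All CWO libraries lay above all vehicle libraries. It alone of the 8 had groups that did not overlap, which held for 18.7% of all genes, so neither this count nor that of unadjusted p stands above the background. The log2 fold change was 0.53 (SE 0.168, unadjusted p = 0.0136, limma adjusted p = 0.196) and did not pass. The call turned on 1 library: without vehicle replicate 3, whose Cd44 is the highest of its group, the value was 0.71 with a limma adjusted p of 0.0212. In one fit of all 12 libraries it passed narrowly, with a limma adjusted p of 0.0498. Calls over all genes also rose there, from 236 to 654 without that library and to 638 in the fit of 12. Without both muscle-rich vehicle libraries, which left replicate 3 alone in its group, the log2 fold change of Cd44 was smaller, at 0.17.

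The other 7 tested members were within the spread of the libraries. Itga6, at 28.1, 23.5 and 19.5 FPKM under CWO, had a log2 fold change of 0.10 (95% interval -0.29 to 0.49). Itgb4, at 39.1, 31.8 and 22.6 FPKM, had -0.21 (-0.67 to 0.25). Itga3, at 28.5, 27.2 and 19.7 FPKM, had 0.18 (-0.20 to 0.55). CWO replicate 3 was the lowest of its group for all 3 of these genes. Itgb1, at 29.9, 26.1 and 29.7 FPKM, had 0.18 (-0.11 to 0.47). Lama3, at 5.28, 5.01 and 4.18 FPKM, had -0.06 (-0.45 to 0.33), and Lamb3, at 54.3, 39.4 and 42.5 FPKM, had -0.12 (-0.44 to 0.21). Dst had -0.25 (-0.61 to 0.12). Each interval spans 0, and none reaches a doubling or a halving (log2 of 1 or -1). The authors' deposited table of epidermis differences has 176 genes, and none of the 9 is among them.

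Around the 9 genes, 1 integrin and 1 matrix ligand of the fixed lists passed between CWO and vehicle in epidermis. Itga7 went from 4.25, 4.38 and 3.78 FPKM under vehicle to 10.1, 10.1 and 7.06 FPKM under CWO (log2 fold change 0.96, SE 0.160, limma adjusted p = 0.0284). The authors' deposited table also lists Itga7, at a log2 fold change of 1.11 with an adjusted p of 0.000169. Itga7 is best known as the laminin receptor chain of skeletal muscle. The muscle sums of these libraries are given above, and the part of muscle RNA in the values of Itga7 was not tested. Postn went from 24.7, 14.3 and 19.4 FPKM to 63.1, 58.4 and 51.3 FPKM (1.55, SE 0.187, limma adjusted p = 0.00908). For both, all CWO libraries lay above all vehicle libraries. With the mean of the muscle markers as a covariate, 9 of all 12315 genes passed in this comparison, beside 236 without it. None of the 7 hemidesmosome companions, 16 basement membrane genes or 20 plaque genes tested passed. The smallest p among the companions were those of Krt14 (0.63, limma adjusted p = 0.185) and Plec (-0.44, adjusted p = 0.228), neither of which passed. In the basement membrane list Col4a6 (-0.32, limma adjusted p = 0.311) and Col4a2 (-0.45, adjusted p = 0.314) came nearest. In the plaque list Fermt2, the gene of the integrin activator kindlin-2, had -0.72 (limma adjusted p = 0.0821) and Tln2, a talin gene, -0.40 (adjusted p = 0.251).

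In papillomas given CWO for 6 weeks, none of the 9 genes passed, where 1 of 12183 genes tested passed (0.00821%) and 306 (2.51%) had an unadjusted p under 0.05, none of the 9 among them. All 9 log2 fold changes were positive, as were 5811 of the 12183 genes tested, and the 9 signs come from the same libraries. Their median was 0.12 beside -0.01 for all genes. The treated and vehicle ranges overlapped for all 9, where 6.59% of all genes did not overlap. The largest was that of Itga3, with 65.1, 63.2 and 53.0 FPKM under vehicle and 59.6, 70.2 and 86.5 FPKM under CWO (0.24, SE 0.143, 95% interval -0.09 to 0.58, limma adjusted p = 1.00). The smallest was that of Cd44, with 145, 129 and 140 FPKM under CWO (0.04, interval -0.13 to 0.21).

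One treated papilloma library stood above the others for most of the 9 genes. CWO replicate 3 had 118 FPKM of Itga6, 104 of Itgb4 and 86.5 of Itga3, the highest papilloma value of each. The same held for its 44.9 FPKM of Lama3, 94.7 of Lamb3 and 8.08 of Dst. Its 130 FPKM of Itgb1 was also the highest, narrowly above the 128 FPKM of CWO replicate 2. The other treated libraries had 78.9 and 89.4 FPKM of Itga6 and 55.0 and 60.9 FPKM of Lamb3, within or near the vehicle range. Without that library the log2 fold changes of Itga6, Lama3, Lamb3 and Dst were -0.04, -0.11, -0.15 and -0.05. Those of the other 5 stayed positive and were smaller than with that library. They were 0.054 for Itgb4, 0.10 for Itga3, 0.11 for Itgb1, 0.043 for Itga5 and 0.027 for Cd44. The same library also had the lowest sum of 4 suprabasal keratinocyte markers, 5807 FPKM against 9535 to 16336 in the other papilloma libraries, and its part in these values was not tested. Itgb1, at 110, 128 and 130 FPKM, and Itga5, at 11.6, 12.6 and 12.4 FPKM, varied less under CWO.

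The authors' deposited papilloma table lists all 9 genes, with log2 fold changes from 0.06 (Cd44) to 0.27 (Itga3) and an adjusted p of 1.0 for each. In that table Itgb4 has 0.21, Itgb1 0.16, Lama3 0.16, Itga6 0.15, Dst 0.14, Lamb3 0.13 and Itga5 0.06. None of the genes tested in the 5 adhesion lists passed in papilloma either, and by size of p Cyr61, a matricellular integrin ligand, came nearest (0.51, unadjusted p = 0.00593, limma adjusted p = 1.00). The other genes with the smallest p of their lists were Spp1 (-0.77) among the ligands, Cd151 (0.16) and Erbb2ip (0.09) among the companions, and Tinagl1 (0.27) and Nid1 (0.22) of the basement membrane. Itgam (-0.22) and Itgb2 (-0.27) were those of the other integrins, and Tns4 (0.25) and Fermt3 (-0.30) those of the plaque.

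The difference between the CWO effects, papilloma minus epidermis, did not pass for any of the 9 genes, where 0.718% of 13228 genes tested passed (0.0302% as higher, 0.688% as lower), and 1 of the 9, Cd44, had an unadjusted p under 0.05, as had 9.89% of all genes tested. Cd44 had -0.49 (SE 0.194, 95% interval -0.91 to -0.07, limma adjusted p = 0.402). Without vehicle epidermis replicate 3 its difference was -0.67 and passed (limma adjusted p = 0.0297), as did 330 of all genes beside 95 with it. Itgb4 had 0.40 (interval -0.17 to 0.96), Dst 0.33 (-0.14 to 0.80), Lamb3 0.20, Lama3 0.18 and Itga5 -0.17. The remaining 3, Itga3 (0.06), Itga6 (0.02) and Itgb1 (-0.03), were near 0. Among the listed genes, Itga7 (-1.16) and Postn (-1.45) passed, each with a limma adjusted p of 0.0315.

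The similarity of profiles was described over the 12 libraries as the root mean square difference of gene-centred log2(FPKM + 1), over 13192 genes, which all share the same 12 libraries and the same tissue contrast. Itga6 was nearest to Itgb1 among the 9 (0.167 log2 units), and Itgb4 to Itga3 (0.190). The 2 chains of α6β4 were thus each closer to another member than to each other. Itga5 and Lama3 were nearest to each other (0.275), Cd44 was nearest to Itgb1 (0.240), and Lamb3 and Dst had no near member (0.396 to each other). In nearness among all genes, these members ranked 12 for Itga6, 20 for Itgb4 and Itgb1, and 36 for Itga3. The ranks were 60 for Lama3, 85 for Itga5, 122 for Cd44, 4781 for Lamb3 and 6477 for Dst, so other genes were closer. Over all genes, the nearest were Myadm and Flna to Itga6 (0.115 and 0.140), Tbc1d2 and Ext1 to Itgb4 (0.155 and 0.164), and Tmem184c and Sult2b1 to Itga3 (both 0.142). Cd81 and Dis3 were nearest to Itgb1 (0.124 and 0.125), Artn and Stom to Itga5 (0.127 and 0.151), and Rapgef3 and the integrin gene Itga2 to Lama3 (0.182 and 0.195). Slco2a1 and Kdelr2 were nearest to Lamb3 (0.130 and 0.132), Pde12 and Sgol2 to Cd44 (0.113 and 0.125), and Adcy9 and Ahdc1 to Dst (0.10 and 0.111).

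Promoters were read from RefSeq sequences on GRCm38.p6, a later build than that of the expression values, as 250 bases before to 50 after a gene's start. They were matched by symbol for 6 of the 9 genes (Itga3, Itga5, Itgb1, Lamb3, Cd44 and Dst), with 9 promoters in all. Itga6, Itgb4 and Lama3 were not matched. Each was searched on both strands for 3 motifs. TGANTCA, the site of AP-1 factors, which TPA activates in skin, was in 1 of the 9 promoters and in 7.81% of all 32851 promoters of that length. CACCTG, the E-box bound by Snail-type repressors, was in 4 of the 9 (both of Dst, 1 of Itga3 and 1 of Lamb3) and in 20.2% of all. TATAAA was in none of the 9 and in 13.6% of all. No promoter of the 9 held 2 different motifs, so no matches overlapped.

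The following 3 promoters are shown in the sense of transcription, with motif matches in capitals: the Itga3 promoter with the AP-1 match, the Lamb3 promoter with a pair of CACCTG matches, and that of Itga5, the gene with the largest change, which has no match. They lie at chr11:95069149-95069448 (minus strand), chr1:193301993-193302292 (plus strand) and chr15:103366742-103367041 (minus strand).
Itga3: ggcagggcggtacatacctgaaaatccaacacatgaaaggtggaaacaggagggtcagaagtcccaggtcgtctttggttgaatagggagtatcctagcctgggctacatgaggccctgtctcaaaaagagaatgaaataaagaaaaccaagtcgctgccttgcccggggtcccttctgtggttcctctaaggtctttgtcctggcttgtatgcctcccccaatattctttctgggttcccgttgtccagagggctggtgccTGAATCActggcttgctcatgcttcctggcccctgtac
Lamb3: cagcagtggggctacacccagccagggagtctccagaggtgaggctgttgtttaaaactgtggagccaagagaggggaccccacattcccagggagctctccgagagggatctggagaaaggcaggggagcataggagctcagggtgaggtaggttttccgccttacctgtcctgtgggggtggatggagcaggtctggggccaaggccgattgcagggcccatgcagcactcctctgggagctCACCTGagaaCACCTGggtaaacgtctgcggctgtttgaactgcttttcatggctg
Itga5: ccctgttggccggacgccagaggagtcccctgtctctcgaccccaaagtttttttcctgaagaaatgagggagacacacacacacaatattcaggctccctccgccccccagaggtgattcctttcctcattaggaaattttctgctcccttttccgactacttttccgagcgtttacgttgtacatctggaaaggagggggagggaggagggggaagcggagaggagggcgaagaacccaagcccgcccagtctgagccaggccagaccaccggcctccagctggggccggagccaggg
The Itga3 match begins 12 bases after the start, and the Lamb3 matches begin 6 bases before and 4 bases after it. All 3 genes were higher in papilloma, by log2 fold changes of 1.42, 0.39 and 2.76. A match is only a run of letters, and the absence of one says no more than that these letters are not in this window.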

How the data were processed

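PolyA RNA of 12 libraries was analysed. Per the submitters' processing notes, the authors made reads with bcl2fastq 1.8.4, aligned them to mm9 with TopHat2 2.0.4, quantified each library with Cufflinks 2.0.2 and compared groups with DESeq. The deposited per-library files hold FPKM per gene, with an interval and a status. The authors' 2 comparison tables give each gene's fold (ratio), log2 fold, p-value and adjusted p, per the file headers. Positions are as listed in the deposited files.

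Values whose status was not OK were left out, and the FPKM of the 248 symbols with more than 1 row were summed. Fragment numbers were recovered from FPKM and its interval, taken as 2 standard deviations of a count, and 67.9% to 69.2% of values under 500 fragments were whole within 0.02. At 40 to 82 fragments, Itga5 in vehicle epidermis is the least precise member.

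FPKM was not rescaled, and log2(FPKM + 1) was tested with limma 3.58.1 (R 4.3.3, trend on). Genes entered a fit if 3 or more of its libraries reached 1 FPKM. Calls needed a two-sided Benjamini-Hochberg adjusted p under 0.05 over all genes tested. CWO effects and tissue contrasts used 6 libraries each, and their difference used all 12. Ratios used the exact permutation test over libraries. Scripts were tested on simulated data with 200 changed genes. Alternatives were pseudocounts of 0.1 and 3, no filter, median-ratio scaling, limma-voom on recovered fragments, no trend, one fit of all libraries, a replicate block, a muscle covariate, and libraries left out.

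The members and gene lists were chosen with earlier results of these data known. All 9 members are named in each comparison. Of each list, up to the 4 called genes with the smallest p are named, or the 2 smallest where none passed, and further genes were named after their values were seen. The 2 nearest genes are named per member. The values of 1 list gene are not reported here. Epidermis libraries are separate samples whose link to single mice is not stated, so p-values measure the spread between these samples.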

Additional observations from a re-analysis of the deposited data

How the results depend on the processing

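Over the alternatives run, 6 to 8 of the 9 members were higher in papilloma under vehicle (Dst passed as lower in 2 of them), and 7 or 8 under CWO. Itga5 was not tested when 1 vehicle papilloma library was left out, since 2 libraries then remained above the filter. For CWO in epidermis the count was 0 except in one fit of all 12 libraries (1, Cd44) and when single libraries were left out (range 0 to 1, the 1 being Cd44 without vehicle replicate 3). Of all genes, 638 passed in the former and 654 in the latter, beside 236. With the muscle covariate no member passed, and 9 of all genes did. For the difference of the CWO effects, leaving out single libraries gave 0 to 1 (Cd44, without vehicle epidermis replicate 3, where 330 of all genes passed beside 95), and in papilloma every alternative gave 0.

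The replicate numbers are shared by the 2 treatments, but the labels do not link them. Deviations of same-numbered libraries had correlations of 0.02, -0.41 and -0.33 in epidermis and 0.26, 0.15 and 0.03 in papilloma, so no pairing was assumed. With the number as a replicate block, 0 members passed in epidermis, papilloma and the difference, beside 26, 5 and 22 of all genes (236, 1 and 95 without it).

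The values that changed sign were uncalled ones near 0. For CWO in epidermis, Itga6 had -0.14 and Itgb1 -0.00044 with the muscle covariate and -0.16 and -0.026 without both muscle-rich libraries, and leaving out single libraries gave -0.027 to 0.23 for Itga6 and -0.21 to 0.029 for Lama3. In papilloma the same gave -0.0013 to 0.083 for Cd44, -0.053 to 0.21 for Dst, -0.043 to 0.24 for Itga6, -0.11 to 0.27 for Lama3 and -0.15 to 0.24 for Lamb3. For the difference, Itgb1 had 0.0074 with limma-voom and 0.016 with median-ratio scaling, and leaving out single libraries gave -0.10 to 0.19 for Itga3, -0.14 to 0.15 for Itga6, -0.13 to 0.072 for Itgb1, -0.050 to 0.34 for Lama3 and -0.033 to 0.35 for Lamb3. Dst between the tissues under CWO had 0.071 with median-ratio scaling and -0.17 to 0.090 without single libraries. The cause of these changes was not tested.

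Recovered depth limits Itga5 in epidermis, and with 3 libraries a group the 95% intervals of the members' CWO effects in papilloma end as high as 0.21 to 0.62.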
